A study of Mus musculus with 8 samples.

Results

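Lysosomal genes were followed here in enterocytes, the absorptive cells that line the small intestine, by the array signal of their transcripts. A fixed list of 45 genes covered lysosomal hydrolases, membrane proteins, cholesterol egress, 2 proton pump genes and the transcription factor Tfeb. Of these, 42 genes (of 10401 named on the array) were represented by 75 of the 18443 probe sets, taken where the platform annotation gave a probe set 1 gene symbol and that symbol was on the list. Aga, Arsb and Cd63 were not analysed here. The mice were male C57BL/6, 2.5 to 3.0 months old, and the labels name no treatment. In the IE-Cpr-null strain the intestinal epithelium lacks NADPH-cytochrome P450 reductase, the electron donor of microsomal P450 enzymes, and the controls were wild-type (WT) littermates. The promoter behind the deletion is not given in the sources used here. Each genotype had 4 arrays, each array held RNA pooled from 2 mice, and spread between arrays is therefore spread between pools. Errors below are standard errors (SE) from limma with n = 4 pools per genotype, and the number of arrays limits their precision.

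Lysosomes are acidic organelles that break down proteins, glycans, glycosaminoglycans and lipids delivered by endocytosis and autophagy. Soluble hydrolases work in the lumen, a proton pump keeps the lumen acidic, and glycosylated membrane proteins enclose it. Cholesteryl esters taken up with lipoproteins are split there, and the freed cholesterol leaves through NPC2 and NPC1. The transcription factor TFEB binds E-boxes in the promoters of many lysosomal genes, in a form known as the CLEAR element. Absorptive cells of the gut take up luminal and basolateral cargo into this pathway, and macrophages are rich in the same enzymes.

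Promoters of the listed genes are shown first because several hold the core of the CLEAR element close to the start of transcription. RefSeq promoter entries (build GRCm38.p6, 250 bases before to 50 after the start) were matched by symbol for 39 of the 45 genes, with 45 promoters. The motifs CACGTG, TCACGTGA, which contains CACGTG, and TCACNCCAC, a sterol regulatory element, were searched on both strands. TCACGTGA was found in 6 of the 45 promoters (13.3%), those of Ctsa, Ctsd, Cln3, Mcoln1, Gla and Atp6v0d1, against 0.974% of all 32851 promoters of the same length. CACGTG was found in 14 (31.1%, against 7.15% of all), and Lamp1 held it 4 times. TCACNCCAC was found in 1 (2.22%, against 1.24%), that of Ctsc. In the stretches of 60 bases below, all upstream of the start and written 5′ to 3′ on the gene's strand, capitals mark TCACGTGA, or TCACNCCAC in Ctsc.
Ctsa, chr2:164833713-164833772, plus strand: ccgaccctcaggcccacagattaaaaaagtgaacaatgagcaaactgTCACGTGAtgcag
Ctsd, chr7:142387893-142387952, minus strand: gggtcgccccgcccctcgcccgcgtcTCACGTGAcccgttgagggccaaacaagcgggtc
Cln3, chr7:126583325-126583384, minus strand: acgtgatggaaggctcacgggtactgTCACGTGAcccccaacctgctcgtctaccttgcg
Mcoln1, chr8:3500447-3500506, plus strand: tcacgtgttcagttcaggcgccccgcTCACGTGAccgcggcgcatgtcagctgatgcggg
Gla, chrX:134601184-134601243, minus strand: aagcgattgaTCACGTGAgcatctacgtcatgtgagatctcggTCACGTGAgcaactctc
Ctsc, chr7:88277970-88278029, plus strand: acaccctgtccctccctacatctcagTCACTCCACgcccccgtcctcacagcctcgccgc
The printed match begins 13 bases before the start in Ctsa, 46 in Mcoln1, 99 in Ctsd and 122 in Cln3, and Gla held 2 matches in the stretch. Ctsa held a second match of TCACGTGA beyond its stretch, beginning at base 5 counted from the start. These are matches of letters, and binding was not measured.

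Every value is a log2 signal set against the WT median of its own probe set (4 arrays), so values show differences between arrays and no level of expression. For the same reason the presence of enterocyte markers could not be checked as a level. The mean of 10 measured enterocyte markers lay between -0.098 and 0.025 on the WT arrays and between -0.082 and 0.031 on the IE-Cpr-null arrays. Some arrays stood apart in transcripts of other cells. Stromal and smooth muscle markers were high on IE-Cpr-null replicate 1 (mean 4.58 over 11 genes) and WT replicate 2 (1.91), and from -0.48 to 0.20 elsewhere. Hepatocyte markers (9 genes) averaged 6.12 and 3.75 on IE-Cpr-null replicates 2 and 3 and at most 0.24 elsewhere. Paneth cell markers (3 genes) averaged 1.96 on IE-Cpr-null replicate 1 and from -0.90 to 0.73 elsewhere. B and plasma cell markers (4 genes) averaged 0.97 on IE-Cpr-null replicate 3 and from -0.39 to 0.29 elsewhere. T cell markers were higher in IE-Cpr-null in 8 of 8 genes (median 0.16), and goblet cell markers lower in 4 of 5 (median -0.13). Pancreatic acinar markers were low on all IE-Cpr-null arrays (-5.47 to -2.25 over 9 genes) and on WT replicate 3 (-5.41), against -0.68 to 1.69 on the remaining WT arrays. The targeted gene was not analysed here.

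Lysosomal transcripts were more often lower than higher in IE-Cpr-null enterocytes, by small amounts, and no probe set of the 75 passed an adjusted p of 0.05 in limma. Over all probe sets 0.0217% passed, 4 of 18443. Of the 75 member probe sets 50 were lower and 25 higher, with a median difference (IE-Cpr-null minus WT) of -0.052 on the log2 scale. Over all 18443 probe sets 42.5% were lower and the median was 0.016. The member median read 0.030, 0.015, -0.031 and -0.013 on the WT arrays (replicates 1 to 4) and -0.13, -0.049, -0.041 and -0.052 on the IE-Cpr-null arrays, lowest on replicate 1. By gene, with the probe sets of a gene averaged, 29 of 42 genes were lower, and 10 of the 21 genes with several probe sets had them on both sides of 0. Every IE-Cpr-null array lay below every WT array in 11 member probe sets of 10 genes, 14.7%, where the share over all probe sets was 2.47%. Groups were apart in the other direction in 0 member probe sets, where that share was 1.64%. At an unadjusted p under 0.05, 18 member probe sets of 14 genes (24.0%) were lower, against 4.47% of all probe sets, and 1 was higher, against 2.92%. Probe sets of 1 gene share their transcript and are not independent. In a bulk sample, fewer cells of a type and less RNA per cell cannot be told apart.

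The count of 11 was obtained with all 8 arrays. Leaving out an array can only add probe sets whose groups do not overlap. Without WT replicate 1 or WT replicate 3 there were 17 on the lower and 1 on the higher side, where 3.96% and 4.70% of all probe sets were on the lower side and 3.69% and 2.55% on the higher. Without IE-Cpr-null replicate 3 there were 18 and 1, against 5.17% and 3.01%. The counts were 12 and 2 without IE-Cpr-null replicate 1, against 5.14% and 5.00%, and 11 and 0 without replicate 2, against 3.27% and 2.17%. They were 15 and 0 without IE-Cpr-null replicate 4, against 3.41% and 2.36%. Leaving out WT replicate 2 gave 13 and 0, against 3.56% and 2.68%. Leaving out WT replicate 4 gave 12 and 0, against 3.01% and 1.9%. Without the arrays rich in hepatocyte transcripts 20 were lower and 1 higher, where the shares over all probe sets were 7.53% and 4.74%. Without the muscle-rich arrays 14 were lower and 2 higher, against 6.90% and 6.72% of all. As shares of the member probe sets, the lower side held 26.7% and 18.7% in these 2 settings. With 1 array left out it held from 14.7% (IE-Cpr-null replicate 2) to 24% (IE-Cpr-null replicate 3). Quantile normalization between arrays left 7 of the 11, 9.33% of member probe sets, against 0.878% of all. The overlapping ones were then those of Neu1, Ctsb, Acp2 and Ctsd. With array quality weights in limma the adjusted p was under 0.05 in 6 member probe sets and in 741 of all 18443. The 6 were those of Tpp1 (both), Acp2 1436788_at, Lipa 1450872_s_at and Ctsb 1417490_at on the lower side and Npc1 on the higher.

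**Figure D1:**
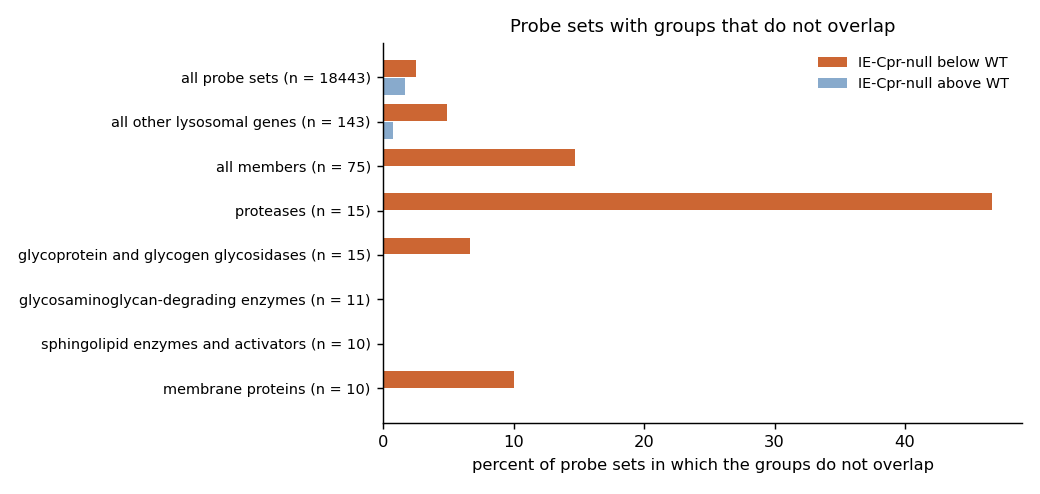
Percent of probe sets in which the 4 IE-Cpr-null arrays lay entirely below (orange) or entirely above (blue) the 4 WT arrays, for all 18443 probe sets, 143 probe sets of other lysosomal genes, the 75 member probe sets and 5 classes of members. The lower direction holds 14.7% of member probe sets and 46.7% of protease probe sets, against 2.47% of all.

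Proteases were the class with most of these probe sets. All 9 listed proteases were measured, by 15 probe sets, of which 13 were lower and 2 higher with a median of -0.24. Groups did not overlap in 7 of them, all lower (46.7%, against 2.47% of all probe sets), covering Tpp1, Ctsa, Ctsb, Ctsc, Ctsd and Ctsl. The class median lay between -0.28 and -0.074 on the IE-Cpr-null arrays and between -0.047 and 0.043 on the WT arrays. All values below are given in the order of replicates 1 to 4.

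Tpp1 encodes tripeptidyl peptidase 1, an exopeptidase that takes tripeptides off the ends of proteins. Its probe set 1434768_at read 0.064, -0.064, 0.070 and -0.070 on the WT arrays and -0.35, -0.49, -0.46 and -0.37 on the IE-Cpr-null arrays. All IE-Cpr-null arrays were thus low and close to each other, with a wide gap to the lowest WT array. The difference was -0.42 (SE 0.0536), a signal 25.2% lower, with the smallest p among the members (unadjusted p = 7.11e-05, limma adjusted p = 0.117). The second Tpp1 probe set, 1448313_at, read -0.0042, -0.029, 0.045 and 0.0042 on WT arrays, against -0.24, -0.34, -0.10 and -0.26 on IE-Cpr-null arrays. These groups did not overlap either, and the difference was -0.24 (SE 0.0547, limma adjusted p = 0.333).

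Ctsl encodes cathepsin L, a cysteine endopeptidase of the lumen. WT arrays gave 0.071, 0.0053, -0.0053 and -0.026 and IE-Cpr-null arrays -0.48, -0.24, -0.33 and -0.15 for 1451310_a_at, lowest on replicate 1. The difference of -0.31 (SE 0.0712) corresponded to a signal 19.4% lower (limma adjusted p = 0.332). Ctsc encodes cathepsin C, a dipeptidyl peptidase that activates granule serine proteases of immune cells. It read 0.095, 0.044, -0.092 and -0.044 on WT arrays, against -0.26, -0.47, -0.13 and -0.21 on IE-Cpr-null arrays, lowest on replicate 2, a difference of -0.27 (SE 0.0802, limma adjusted p = 0.454).

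Ctsa encodes cathepsin A, a carboxypeptidase that also protects beta-galactosidase and neuraminidase 1 in a complex of the 3 enzymes. Its WT arrays read 0.046, 0.015, -0.041 and -0.015 and its IE-Cpr-null arrays -0.32, -0.26, -0.13 and -0.12. The groups lay apart with a difference of -0.21 (SE 0.0548, limma adjusted p = 0.371), and its promoter is among those printed above. Ctsd, the aspartic protease cathepsin D, also has the motif and had the smallest shift of those that did not overlap. It read -0.026, -0.0014, 0.0014 and 0.062 on WT arrays, against -0.13, -0.049, -0.074 and -0.052 on IE-Cpr-null arrays, a difference of -0.085 (SE 0.0366, limma adjusted p = 0.675).

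Ctsb, the cysteine protease cathepsin B, had 4 probe sets, all lower. In 1417490_at the WT arrays read -0.036, 0.045, -0.047 and 0.036 and the IE-Cpr-null arrays -0.28, -0.083, -0.071 and -0.15, without overlap (-0.15, SE 0.0555, limma adjusted p = 0.606). The widest difference of the 4 was that of 1417491_at (-0.50, SE 0.211, limma adjusted p = 0.669). There the WT arrays were at 0.25, 0.27, -0.25 and -0.26, and the IE-Cpr-null arrays at -0.96, -0.58, -0.10 and -0.35, which overlap. The third, 1448732_at, was at 0.0030, 0.020, -0.15 and -0.0030 in WT, and at -0.43, -0.22, -0.14 and -0.15 in IE-Cpr-null, and of the WT arrays only replicate 3 overlapped (-0.20, SE 0.0743, limma adjusted p = 0.571). The fourth, 1417492_at, differed by -0.24 (SE 0.147), or by -0.13 without IE-Cpr-null replicate 1 and -0.16 without WT replicate 1, and overlapped. IE-Cpr-null replicate 1, the array rich in muscle transcripts, was the lowest in all 4, and without the muscle-rich arrays the differences of the first 3 were -0.086, -0.26 and -0.12. The size of the Ctsb difference therefore depended on the probe set, and its direction did not.

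Lgmn, the asparaginyl endopeptidase legumain that matures several cathepsins, had the largest difference of any member (-0.62, SE 0.218, limma adjusted p = 0.557). Its arrays were uneven, at 0.043, -0.14, 0.41 and -0.043 on WT arrays, against -0.55, -1.09, -0.063 and -0.51 on IE-Cpr-null arrays, and IE-Cpr-null replicate 3 lay inside the WT range. Ctsh, the aminopeptidase cathepsin H, differed by -0.25 (SE 0.133), or by -0.12 without IE-Cpr-null replicate 2, and overlapped. Ctsz, the carboxypeptidase cathepsin Z, differed by -0.0081, 0.036 and 0.063 in its 3 probe sets, each with groups that overlapped. IE-Cpr-null replicate 1 was also the lowest array for Ctsl, Ctsa and Ctsd. The part of muscle transcripts in these differences was not tested. The protease median was -0.17 without IE-Cpr-null replicate 1 and -0.28 without IE-Cpr-null replicate 3.

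**Figure D2:**
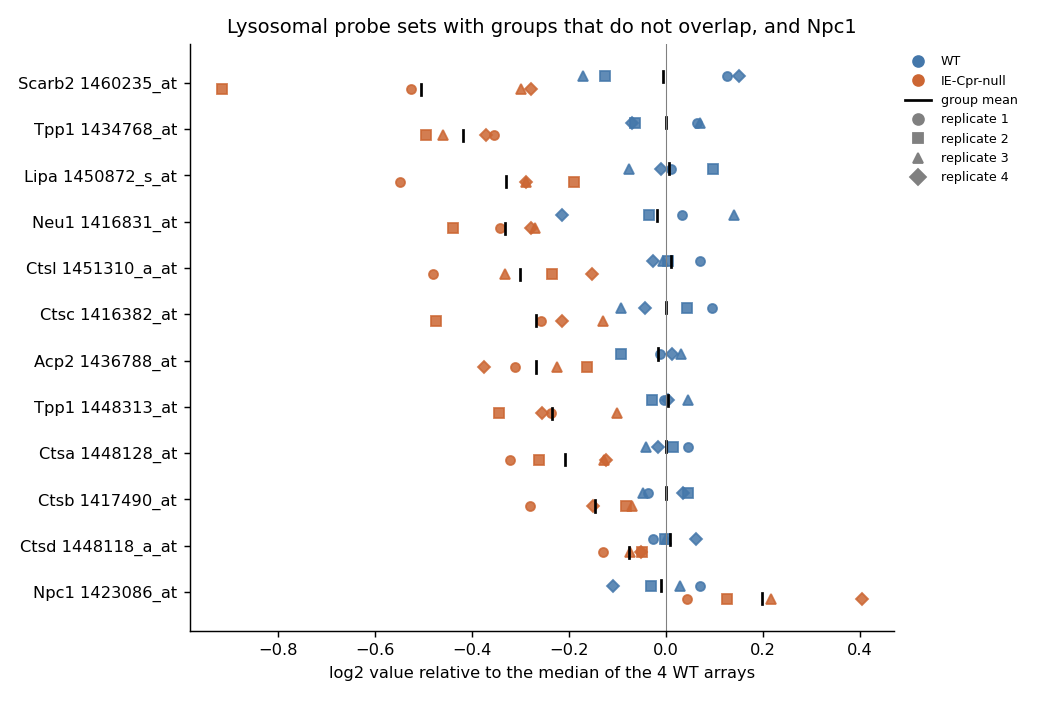
Log2 value relative to the WT median on each array for the 11 member probe sets whose groups did not overlap, and for Npc1. Blue points are WT, orange points IE-Cpr-null, the marker shape gives the replicate and black bars are group means. In the 11 probe sets all orange points lie left of all blue points, and in Npc1 the IE-Cpr-null mean lies to the right with 1 orange point inside the WT range.

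Genes of cholesterol release and egress did not all lie on the same side. Their 6 probe sets had a median of -0.19, and the median lay between -0.17 and -0.096 on the IE-Cpr-null arrays and between -0.022 and 0.0095 on the WT arrays. Lipa encodes the lysosomal acid lipase, which splits cholesteryl esters and triglycerides. Its 3 probe sets differed by -0.33 (SE 0.0806), -0.32 (SE 0.199) and -0.29 (SE 0.138). In 1450872_s_at the WT arrays read 0.010, 0.098, -0.075 and -0.010 and the IE-Cpr-null arrays -0.55, -0.19, -0.29 and -0.29, without overlap (limma adjusted p = 0.339). Groups overlapped in the others. WT arrays for 1423141_at were at -0.40, 0.50, -0.15 and 0.15, and IE-Cpr-null arrays were at -0.25, -0.016, -0.39 and -0.52. For 1423140_at the WT arrays were at 0.12, -0.060, -0.32 and 0.060, and the IE-Cpr-null arrays were at -0.61, -0.079, -0.23 and -0.45. Without WT replicate 2 the difference of 1423141_at was -0.16. All 3 Lipa probe sets were lower, and the one without overlap is of a type whose probes can be shared between transcripts.

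Npc1 encodes the membrane transporter that moves cholesterol out of the lysosome. It read 0.071, -0.030, 0.030 and -0.11 on WT arrays, against 0.045, 0.13, 0.22 and 0.40 on IE-Cpr-null arrays. IE-Cpr-null replicate 4 was highest and replicate 1 lay inside the WT range. The difference of 0.21 (SE 0.0822, limma adjusted p = 0.629) was the largest upward one of the members, and the 1 with an unadjusted p under 0.05 (0.0371). Npc2, the soluble partner that hands cholesterol to NPC1, differed by -0.033 (SE 0.0642) and -0.100 (SE 0.0693) in its 2 probe sets. WT arrays read 0.0088, -0.042, 0.14 and -0.0088 for 1416901_at, and IE-Cpr-null arrays 0.042, -0.16, 0.071 and 0.0090. For 1448513_a_at they read -0.049, -0.0081, 0.23 and 0.0081, and -0.065, -0.13, 0.034 and -0.055 in IE-Cpr-null. The groups overlapped in both, and 1448513_a_at differed by -0.039 without WT replicate 3. The sign of 1416901_at was positive when WT replicate 3 (0.0046), IE-Cpr-null replicate 2 (0.017) or both hepatocyte-rich arrays (0.0015) were left out.

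Membrane proteins were lower in 9 of 10 probe sets, with a median of -0.14. Of the 10, 4 were lower at an unadjusted p under 0.05 in limma (40%, against 4.47% of all probe sets). The class median lay between -0.20 and -0.12 on the IE-Cpr-null arrays and between -0.084 and 0.060 on the WT arrays. Scarb2 encodes LIMP-2, the receptor that carries glucocerebrosidase to lysosomes. In 1460235_at the WT arrays read 0.13, -0.13, -0.17 and 0.15 and the IE-Cpr-null arrays -0.53, -0.92, -0.30 and -0.28. The groups did not overlap, replicate 2 was far lower than the rest, and the difference was -0.50 (SE 0.154, 29.3% lower, limma adjusted p = 0.475). The second Scarb2 probe set, 1454704_at, read -0.17, 0.037, 0.0048 and -0.0048 on WT arrays, against -0.19, -1.10, -0.095 and -0.60 on IE-Cpr-null arrays, again lowest on replicate 2. It overlapped, with a difference of -0.46 (SE 0.211), or -0.26 without that replicate.

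Mcoln1 encodes the calcium channel mucolipin 1, whose activity is linked to TFEB signalling. Its probe sets differed by -0.31 (SE 0.0917, limma adjusted p = 0.447) and -0.17 (SE 0.0627, limma adjusted p = 0.57). In 1416671_a_at WT arrays read -0.17, 0.021, -0.021 and 0.077 and IE-Cpr-null arrays -0.48, -0.40, -0.35 and -0.10, with replicate 4 inside the WT range. In 1416672_s_at the WT arrays read -0.19, 0.081, 0.0047 and -0.0047, and the IE-Cpr-null arrays -0.22, -0.24, -0.21 and -0.13, with WT replicate 1 among them. Cln3, a membrane protein whose loss causes juvenile Batten disease, read 0.091, 0.31, -0.26 and -0.091 on WT arrays, against -0.19, -0.35, -0.19 and -0.40 on IE-Cpr-null arrays. WT replicate 3 lay within the IE-Cpr-null range, and the difference was -0.29 (SE 0.121, limma adjusted p = 0.659), or -0.20 without WT replicate 2. The abundant coat proteins shifted little, Lamp1 by -0.11 (SE 0.0501) and Lamp2 by -0.099, -0.078, -0.069 and 0.014 in 4 probe sets, all with groups that overlapped.

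**Figure D3:**
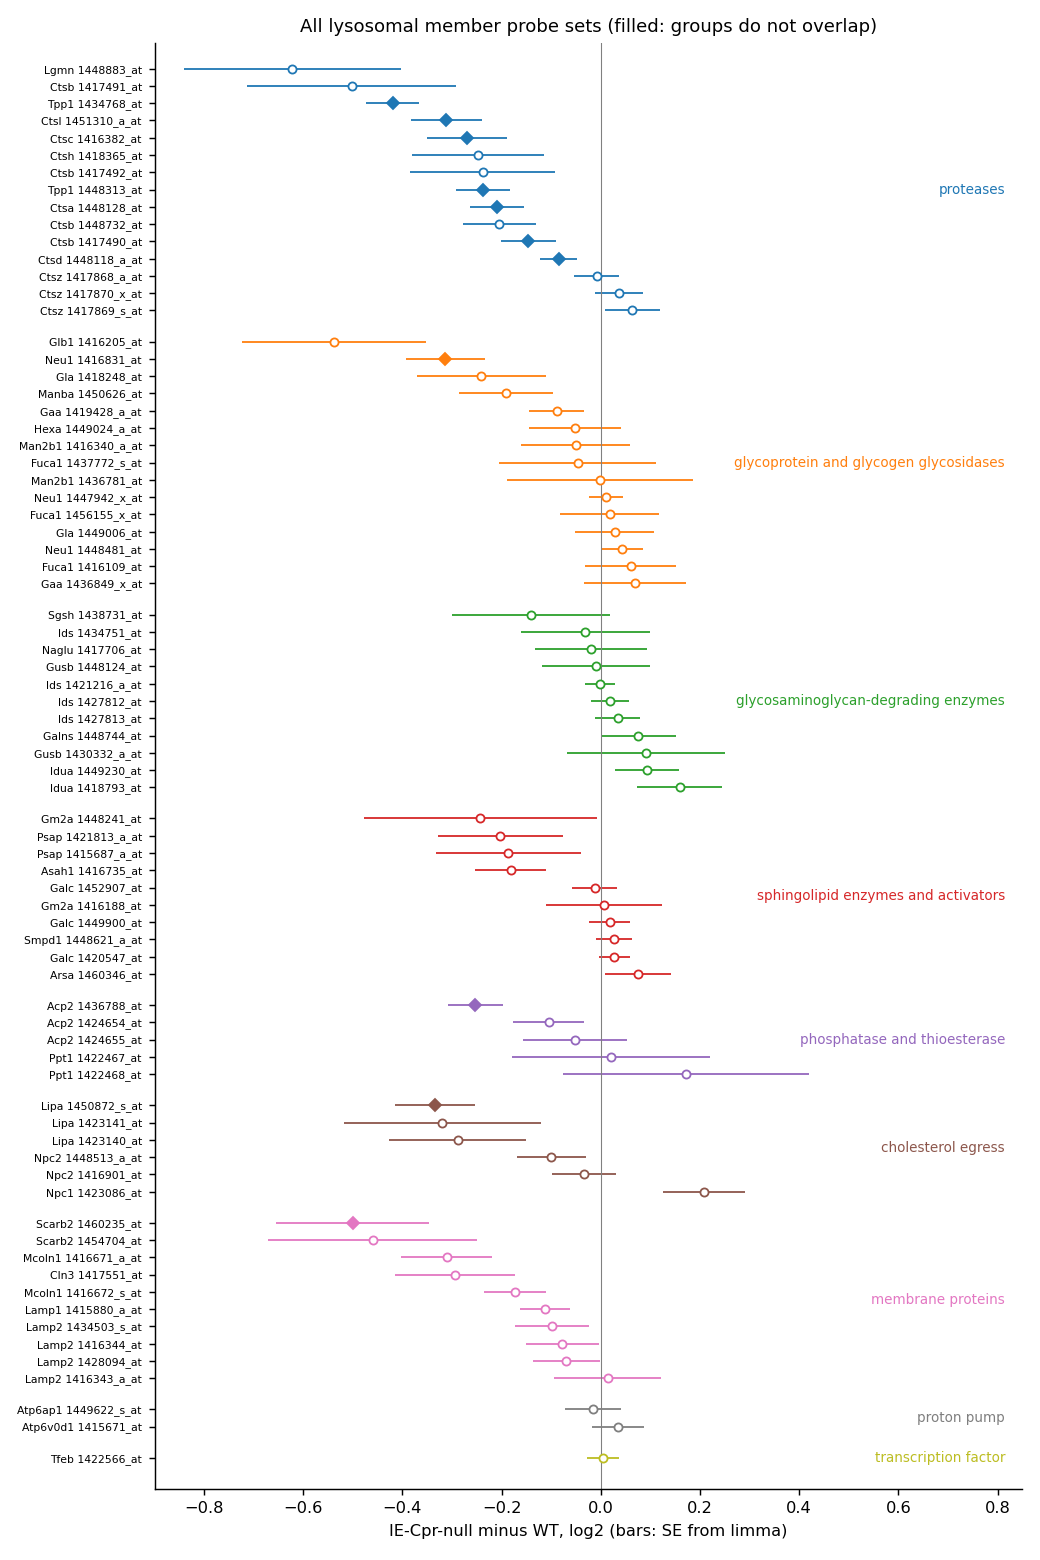
Difference between IE-Cpr-null and WT (log2, points) with the SE from limma (bars) for all 75 member probe sets, grouped and coloured by class, with filled diamonds where groups did not overlap. Filled points lie on the lower side in every class that has any, and the differences run from -0.62 (Lgmn) to 0.21 (Npc1).

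Glycosidases of glycoproteins and glycogen were divided. Of 15 probe sets for 8 measured genes, 9 were lower and 6 higher, with a median of -0.047. The 2 with an unadjusted p under 0.05 in limma, both lower (13.3%, against 4.47% of all probe sets), belonged to the partners of cathepsin A. Neu1, the sialidase neuraminidase 1, read 0.034, -0.034, 0.14 and -0.21 on WT arrays, against -0.34, -0.44, -0.27 and -0.28 on IE-Cpr-null arrays in 1416831_at. These arrays did not overlap (-0.31, SE 0.0798, limma adjusted p = 0.35). The other 2 Neu1 probe sets differed by 0.011 and 0.043 and did not follow it. Their values ran from -0.029 to 0.031 and from -0.068 to 0.056 on the WT arrays, a far narrower range than in 1416831_at. Glb1, the beta-galactosidase, read 0.19, -0.19, 0.37 and -0.34 on WT arrays, against -0.50, -0.84, -0.54 and -0.24 on IE-Cpr-null arrays. WT replicate 4 lay below IE-Cpr-null replicate 4, and the difference was -0.54 (SE 0.185, limma adjusted p = 0.545). After quantile normalization the differences were -0.17 for Neu1 and -0.28 for Glb1.

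The other 13 probe sets of this class ran from -0.24 to 0.069, with a smallest unadjusted p of 0.0821. Gla, the alpha-galactosidase with 2 TCACGTGA matches, differed by -0.24 (SE 0.13) and 0.028 (SE 0.0797) in its probe sets, the first by -0.15 without IE-Cpr-null replicate 3. Manba, the beta-mannosidase, differed by -0.19 (SE 0.0953), or by -0.10 without IE-Cpr-null replicate 2, and Hexa, the alpha chain of hexosaminidase, by -0.051 (SE 0.0925). Gaa, the acid glucosidase of glycogen, had 1 probe set on either side (-0.089 and 0.069), and Fuca1, the fucosidase, and Man2b1, the alpha-mannosidase, stayed within 0.060 of 0. The class median turned positive without IE-Cpr-null replicate 1 (0.012) and without WT replicate 1 (0.013), so its sign rested on these arrays.

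Enzymes that degrade glycosaminoglycans showed no probe set with an unadjusted p under 0.05 in limma (0 of 11), and 5 were lower and 6 higher. Over all probe sets 4.47% were lower and 2.92% higher at that p, and 11 are too few to set the class apart from these shares. The median was 0.018. Idua, the alpha-iduronidase, had the largest difference, with -0.061, -0.022, 0.054 and 0.022 on WT arrays, against 0.14, 0.41, 0.026 and 0.053 on IE-Cpr-null arrays in 1418793_at (0.16, SE 0.0855, limma adjusted p = 0.78). Replicate 2 was highest, replicates 3 and 4 did not exceed the highest WT array, and the difference was 0.076 without replicate 2. Its second probe set differed by 0.093 (SE 0.065). The 10 probe sets beside 1418793_at, of Gusb, Galns, Ids, Idua, Naglu and Sgsh, ran from -0.14 to 0.093. Gusb is the beta-glucuronidase, and the others remove sulfate groups or single sugars from heparan, dermatan or keratan sulfate.

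Sphingolipid enzymes and their activator proteins were lower in 5 and higher in 5 of 10 probe sets, with a median of -0.0034. Asah1, the acid ceramidase, read 0.020, 0.023, -0.071 and -0.020 on WT arrays, against -0.22, -0.37, -0.023 and -0.17 on IE-Cpr-null arrays, and replicate 3 lay inside the WT range (-0.18, SE 0.0718, limma adjusted p = 0.628). Gm2a, the GM2 activator, spread widely, at -0.46, 0.042, 0.71 and -0.042 on WT arrays, against -0.12, -0.45, 0.025 and -0.17 on IE-Cpr-null arrays in 1448241_at. The difference was -0.24 (SE 0.235), and -0.028 without WT replicate 3. Its second probe set differed by 0.0059 (SE 0.117). Psap, the precursor of the saposins, was lower in both probe sets (-0.20, SE 0.126 and -0.19, SE 0.146). WT replicate 1 was below every IE-Cpr-null array, and without it the differences were both -0.33. Galc, Smpd1 and Arsa, which act on galactosylceramide, sphingomyelin and sulfatide, ran from -0.013 to 0.075.

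Acp2, a lysosomal acid phosphatase, read -0.012, -0.092, 0.032 and 0.012 on WT arrays, against -0.31, -0.16, -0.22 and -0.38 on IE-Cpr-null arrays in 1436788_at. The groups did not overlap (-0.25, SE 0.0558, limma adjusted p = 0.318). Its other probe sets, 1424654_at and 1424655_at, differed by -0.11 (SE 0.0711) and -0.052 (SE 0.104) and overlapped. Ppt1, the thioesterase that removes palmitate from proteins, differed by 0.021 (SE 0.199) in 1422467_at and 0.17 (SE 0.248) in 1422468_at. Without IE-Cpr-null replicate 2 these were -0.10 and -0.0062. IE-Cpr-null replicate 1 was lowest of all arrays for 1422468_at at -0.50 and replicate 2 highest at 0.64.

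**Figure D4:**
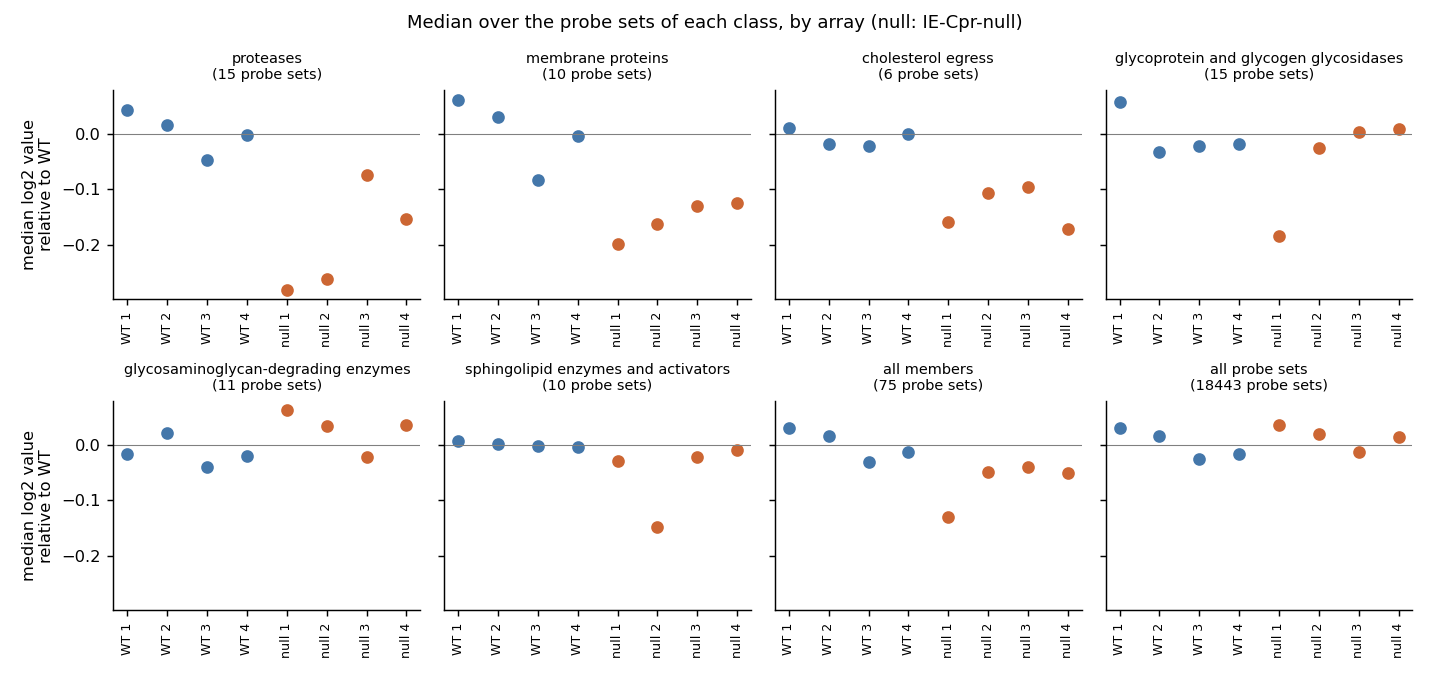
Median log2 value relative to WT over the probe sets of 6 member classes, all members and all probe sets, on each of the 4 WT (blue) and 4 IE-Cpr-null (orange) arrays. The IE-Cpr-null arrays lie below all WT arrays for proteases, membrane proteins, cholesterol egress, sphingolipid enzymes and all members. The nearest points are at -0.0085 against -0.0043 for sphingolipid enzymes and at -0.041 against -0.031 for all members. IE-Cpr-null and WT arrays overlap for glycosidases, glycosaminoglycan-degrading enzymes and all probe sets.

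The proton pump genes Atp6v0d1, a subunit of the membrane sector, and Atp6ap1, an accessory subunit, differed by 0.034 (SE 0.0523) and -0.016 (SE 0.0569). Atp6v0d1 read 0.047, -0.086, 0.028 and -0.028 on WT arrays, against -0.089, 0.095, 0.054 and 0.038 on IE-Cpr-null arrays, which overlap, and without the hepatocyte-rich arrays the difference was -0.016. Tfeb read 0.019, 0.024, -0.022 and -0.019 on WT arrays, against 0.028, 0.011, -0.028 and 0.0072 on IE-Cpr-null arrays, a difference of 0.0041 (SE 0.0316, limma adjusted p = 0.963). That profile over the arrays was shared. Pearson's r with it was above 0.9 over the 8 arrays in 2707 other probe sets, which had a median range of 0.12 over the arrays, against 0.43 in the rest. Among them were probe sets of Myh6, a myosin of heart muscle, Prm1, a protamine of sperm, and Nppa, a hormone of the atria, all chosen after their values were seen. Gfap, chosen with them, had an r of 0.869. Another probe set of Myh6 (0.865) and another of Prm1 (0.772) were also below 0.9. Probe sets of Ids (2), Neu1 (1) and Galc (1) followed the same profile. Levels are unknown here, so whether these probe sets measured their transcripts was not tested, and the small Tfeb difference gives no bound on that gene. Without the 2708 probe sets of this profile the member median was -0.081, with 71.4% lower, and the 11 probe sets were still 11. Over all 15735 remaining probe sets the median was 0.0014 and 49.6% were lower, where it was 0.016 and 42.5% with the profile. The background was then 2.89% of 15735 for groups that did not overlap. It was 5.24% for an unadjusted p under 0.05 in limma, both in the lower direction.

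The promoter motifs were set beside these differences. Of the 14 measured genes with CACGTG, 12 were lower by the mean of their probe sets and the median was -0.13. Of the 23 measured genes with a promoter entry but no CACGTG, 14 were lower, with a median of -0.052. For TCACGTGA, Mcoln1, Cln3, Ctsa, Gla and Ctsd were lower by that mean, and Atp6v0d1 was higher except without the hepatocyte-rich arrays. Lgmn and Glb1, the genes with the largest differences by that mean (-0.62 and -0.54), held CACGTG 49 and 48 bases before the start. Tpp1 (-0.33) and Scarb2 (-0.48), also with large differences, had no match of the 3 motifs in this window. This division was not tested.

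The other genes of the pathway were followed with a second list of 108 symbols, of which 77 were measured by 143 probe sets. None passed an adjusted p of 0.05 in limma (0 of 143). At an unadjusted p under 0.05, 12 were lower (8.39%, against 4.47% of all) and 2 higher (1.40%, against 2.92%). Of these probe sets 85 were lower and 58 higher, with a median of -0.019. Groups did not overlap in 7 on the lower side (4.90%, against 2.47% of all) and in 1 on the higher side (0.699%, against 1.64%). Receptors and adaptors that sort hydrolases to lysosomes were lower in 14 of 17 probe sets, with a median of -0.088. Sort1, the sorting receptor sortilin, read 0.059, -0.059, -0.15 and 0.26 on WT arrays, against -0.64, -0.34, -0.17 and -0.36 on IE-Cpr-null arrays in 1423363_at, without overlap (-0.41, SE 0.119, limma adjusted p = 0.444). Groups did not overlap in 1423362_at either (-0.16, SE 0.0507), and they overlapped in 1450955_s_at (-0.072, SE 0.0487). Ap3d1, a subunit of the adaptor complex AP-3, was the 1 on the higher side (0.14, SE 0.0594).

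Groups also did not overlap in 1 probe set each of the membrane proteins Tmem192 (-0.30, SE 0.0793) and Laptm4b (-0.18, SE 0.0406), the thiol reductase Ifi30 (-0.099, SE 0.0413), the pump subunit Atp6v1e1 (-0.11, SE 0.0362) and the autophagy protein Gabarapl1 (-0.38, SE 0.0981). They overlapped in the other probe sets of Laptm4b (-0.082 and -0.078), Atp6v1e1 (-0.10) and Gabarapl1 (1416418_at, -0.28, SE 0.127). Tmem192 read 0.13, -0.088, -0.012 and 0.012 on WT arrays, against -0.41, -0.39, -0.12 and -0.22 on IE-Cpr-null arrays. Gabarapl1 1416419_s_at read -0.084, 0.21, 0.071 and -0.071 on WT arrays, against -0.15, -0.42, -0.30 and -0.52 on IE-Cpr-null arrays. In 1416418_at the IE-Cpr-null arrays ran from -0.53 to 0.013, and the WT arrays from -0.063 to 0.27. The 33 probe sets of other pump subunits had a median of -0.011, and the 44 of regulators of lysosome number and autophagy one of 0.028, with 17 lower and 27 higher.

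Macrophage markers lay on the same side as the lysosomal proteases. Of 10 measured markers 9 were lower in IE-Cpr-null, with a median difference of -0.36, and 0 passed an adjusted p of 0.05 in limma. The mean of the list read -0.42, -0.094, 0.75 and 0.079 on the WT arrays and -0.29, -0.88, -0.22 and -0.51 on the IE-Cpr-null arrays, which overlap. C1qa, a complement gene of macrophages, had the largest difference of the list (-1.70, SE 0.771) and was lowest on IE-Cpr-null replicate 2 (-3.35). The list was not uniform. Cd14 (-0.18), Adgre1 (-0.10) and Itgam (-0.047) differed far less, Mrc1 was slightly higher (0.0045), and Lyz2 was highest on IE-Cpr-null replicate 1 (1.02). WT replicate 3, highest for macrophage markers, was also the highest array for Lgmn (0.41), Glb1 (0.37) and both Tpp1 probe sets (0.070 and 0.045). IE-Cpr-null replicate 2 was lowest for the markers. It was also the lowest array for Lgmn (-1.09), Glb1 (-0.84), both Tpp1 probe sets (-0.49 and -0.34), Scarb2 (-0.92) and Ctsc (-0.47). Other values did not follow the markers. On WT replicate 3, Scarb2 1460235_at (-0.17) and Ctsc (-0.092) were the lowest of the WT arrays. Ctsl (-0.48), Ctsa (-0.32), Ctsd (-0.13), every Ctsb probe set and Lipa 1450872_s_at (-0.55) were lowest on IE-Cpr-null replicate 1. The part of macrophage transcripts in these differences was not tested. WT replicate 1 had a lower macrophage mean than IE-Cpr-null replicates 1 and 3, and there Tpp1 stood at 0.064, Ctsl at 0.071 and Ctsa at 0.046. All of these were among the probe sets whose groups did not overlap, so every WT array was above every IE-Cpr-null array by definition. Other members were low on WT replicate 1, with Psap at -0.56 and -0.49, Gm2a 1448241_at at -0.46, Lipa 1423141_at at -0.40, Mcoln1 at -0.17 and -0.19 and Scarb2 1454704_at at -0.17. WT replicate 3 was as low in acinar transcripts as the IE-Cpr-null arrays, and there Tpp1 stood at 0.070, Ctsl at -0.0053 and Ctsa at -0.041. Member probe sets there ran from -0.47 (Ppt1 1422468_at) to 0.71 (Gm2a 1448241_at). Of the WT arrays it had the lowest median of all members (-0.031), proteases (-0.047) and membrane proteins (-0.084), and also of all probe sets (-0.025). The part of acinar transcripts in these differences was not tested.

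**Figure D5:**
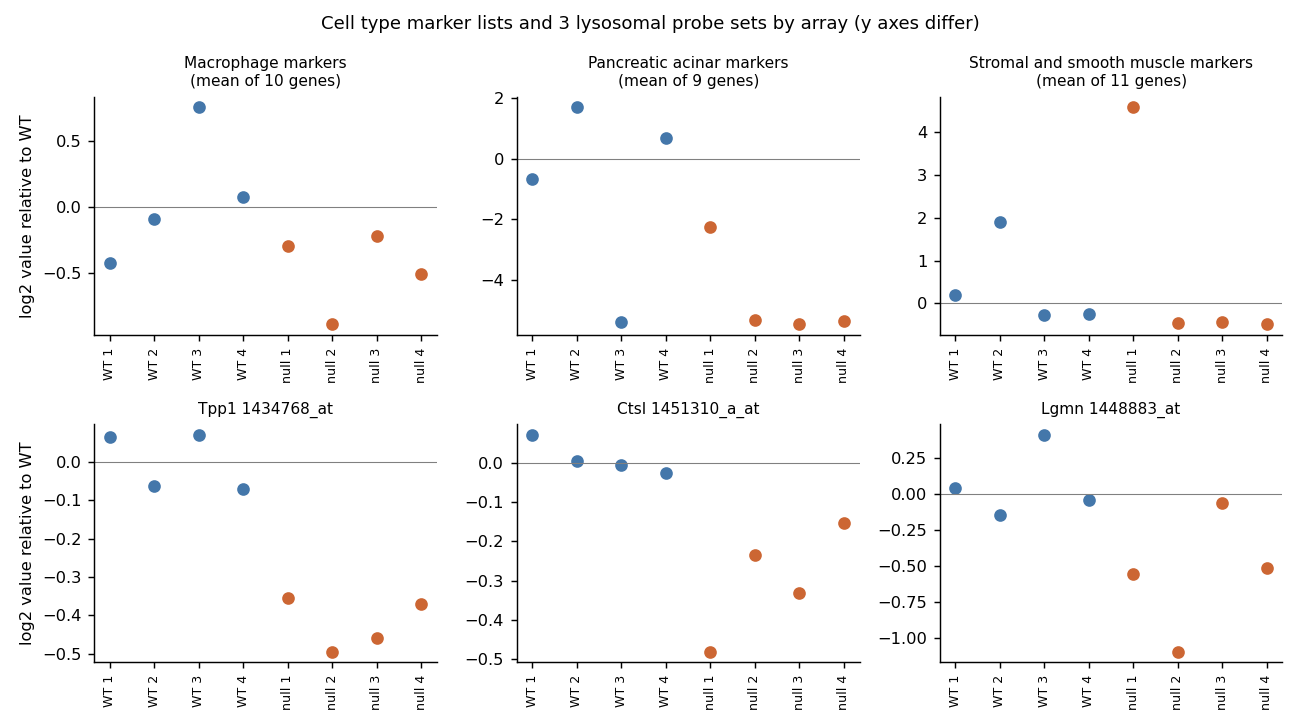
Mean log2 value relative to WT of macrophage, pancreatic acinar and stromal and smooth muscle markers (top) and the values of Tpp1, Ctsl and Lgmn (bottom) on each WT (blue) and IE-Cpr-null (orange) array, with y axes that differ. Tpp1 and Ctsl are low on all 4 IE-Cpr-null arrays. Tpp1 and Lgmn are both highest on WT replicate 3 and lowest on IE-Cpr-null replicate 2, as the macrophage markers are. Ctsl is highest on WT replicate 1 and lowest on IE-Cpr-null replicate 1.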

How the data were processed

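The authors deposited 1 table of log2 values per probe set and array, made with GCRMA per the submitters' processing notes (neither version nor settings are given in the sources used here). The median of the 4 WT arrays was 0 in every probe set (largest size 9.54e-07), so each had also been centred, which removes levels. No filter on dim probe sets was therefore possible. Sample titles gave each array its genotype and replicate number. Symbols came from the platform annotation, with 16689 probe sets carrying 1 symbol, 616 several and 1138 none, and all 45 listed symbols were found in the RefSeq gene table.

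Every probe set was tested with limma 3.58.1 in R 4.3.3 (lmFit and eBayes, 2 group means, two-sided), with Benjamini-Hochberg adjustment over all 18443 and a threshold of 0.05. The members and gene lists were chosen with earlier results of these data known, so that no test was made over a list. The labels tie no pool to a litter, and p-values measure the spread between pools. Members given array by array had groups that did not overlap, an unadjusted p under 0.05, or the largest difference of their class, or were Tfeb, Npc1, Npc2 or Lipa. The lists were the members, 108 other lysosomal genes and markers of other cell types. The scripts were tested on simulated data. Promoters were searched with Python 3.11.15. Alternatives were quantile normalization, median centring, array weights, a replicate block, a robust prior, no probe sets ending in _s_at or _x_at, and arrays left out. Leaving out the probe sets that follow the Tfeb profile, and single arrays for members not given array by array, was chosen after seeing the data.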

Additional observations from a re-analysis of the deposited data

Results flagged for a closer look

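In 58 groups of 4 arrays, over the members given array by array and the median of all members, 2 held an array far from the rest by Dixon's ratio at the 95% level, and chance gives about 1 in 20. Ctsb 1448732_at read -0.15 on WT replicate 3, against -0.0030 to 0.020 on the other WT arrays. The median of all member probe sets was -0.13 on IE-Cpr-null replicate 1, the array rich in stromal and smooth muscle transcripts, where the remaining IE-Cpr-null arrays ran from -0.052 to -0.041. Without that array the member median difference was -0.050.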

How the results depend on the processing

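All 28 member probe sets given array by array kept their direction in the settings that held them (16, or 15 for Lipa 1450872_s_at and Mcoln1 1416672_s_at), apart from Tfeb, Npc2 1416901_at and Atp6v0d1. Tfeb was at -0.0095 with quantile normalization, -0.0091 with median centring and from -0.0038 to 0.015 with 1 array left out. Npc2 1416901_at was 0.0015 and Atp6v0d1 -0.016 without the hepatocyte-rich arrays, and Npc2 1416901_at ran from -0.060 to 0.017 with 1 array left out. Over all probe sets the 4 calls became 1 with quantile normalization, 741 with array weights, 1 with the replicate block and 1 to 16 with 1 array left out. Member calls were 6 with array weights and 0 in the other settings. Member probe sets whose groups did not overlap, in either direction, numbered 11 with all arrays and 7 with quantile normalization. They numbered 21 without the hepatocyte-rich arrays and 11 to 19 with 1 array left out. On the lower side alone these counts were 11, 7, 20 and 11 to 18, or 14.7%, 9.33%, 26.7% and 14.7% to 24% of member probe sets. The shares of all probe sets on the lower side were 2.47%, 0.878%, 7.53% and 3.01% to 5.17%, so the background rose as arrays were left out. The member median was -0.11 without the hepatocyte-rich arrays and -0.097 to -0.049 with 1 array left out. The deviations of samples with the same replicate number correlated at -0.058, -0.041, 0.26 and 0.13, not above 0.1 in every pair, so the number was not taken as a pairing. Median centring moved the median of all probe sets from 0.016 to 0.0029. The planned filter on dim probe sets was not run, since centring removed the levels, and what signal over background limits is unknown. The cause of each change was not tested.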
